A study of Homo sapiens with 12 samples.

Results

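The genes described here encode the proteasome and its assembly machinery: 38 genes, taken by symbol from the 60664 gene rows of the count table. They are 14 subunits of the 20S core (PSMA1 to PSMA7 and PSMB1 to PSMB7), 17 subunits of the 19S particle, 4 activators (PSME1 to PSME4), the chaperones PSMD5 and POMP, and the transcription factor NFE2L1. All 38 symbols were found and all 38 passed the filter on low counts. Poly(A) RNA was sequenced from TOM-1 and RS4;11, established human lines of B-cell acute lymphoblastic leukaemia. TOM-1 carries the BCR-ABL1 fusion and RS4;11 a KMT2A rearrangement, and both are labelled as wild-type lymphoblasts from blood. Both lines grew in the same serum-containing medium. For 24 h each was left untreated or given ADI-PEG20 at 1000 ng/ml, which makes 4 groups of 3 libraries. ADI-PEG20 is a pegylated arginine deiminase that removes arginine from the medium. Each genotype is represented by 1 line, and nothing in the labels says that the 3 libraries of a group came from separate cultures, so p-values measure the spread between these libraries, which may be technical.

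The proteasome degrades proteins that carry ubiquitin chains. Its 20S core is a barrel of stacked rings, in which outer alpha subunits gate the entrance and inner beta subunits hold the cutting sites, those of PSMB5, PSMB6 and PSMB7. The 19S particle caps the core: its ATPases unfold the substrate, its base and lid bind ubiquitin, and the lid subunit PSMD14 cuts the chains off. PSME1 with PSME2, PSME3 and PSME4 form alternative caps. NFE2L1 is made at the endoplasmic reticulum, is freed by p97 (VCP), NGLY1 and the protease DDI2 when proteasome capacity is short, and switches on proteasome genes with small MAF partners. In leukaemic lymphoblasts the proteasome is best known as the target of bortezomib, which blocks PSMB5.

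Stretches upstream of the start site are shown for 4 of the 13 genes called in treated TOM-1 under every alternative tried. Of these 4, PSMB3, PSME1 and PSMA3 fell and NFE2L1 rose. Others of the 13, such as PSMA6, PSMB4, PSMD1 and PSMD3, are not shown, so the 4 do not stand for all 13. Each stretch shown runs from 200 to 41 bases before a RefSeq start (GRCh38.p14, plus strand of the chromosome) and lies outside annotated exons. Capitals mark TGACNNNGC, the core of the antioxidant-type element read by NFE2L1 and its relatives, and CCAAT, the element read by NF-Y, on either strand. The positions are chr17:38752541-38752700 for PSMB3, chr14:24135994-24136153 for PSME1, chr14:58244643-58244802 for PSMA3 and chr17:48048159-48048318 for NFE2L1.
PSMB3: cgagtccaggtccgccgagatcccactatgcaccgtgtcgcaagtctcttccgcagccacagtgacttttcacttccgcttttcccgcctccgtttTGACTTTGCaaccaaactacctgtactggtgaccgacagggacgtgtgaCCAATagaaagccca
PSME1: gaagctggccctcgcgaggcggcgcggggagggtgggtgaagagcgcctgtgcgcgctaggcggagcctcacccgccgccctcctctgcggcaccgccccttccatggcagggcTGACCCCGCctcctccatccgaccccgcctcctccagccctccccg
PSMA3: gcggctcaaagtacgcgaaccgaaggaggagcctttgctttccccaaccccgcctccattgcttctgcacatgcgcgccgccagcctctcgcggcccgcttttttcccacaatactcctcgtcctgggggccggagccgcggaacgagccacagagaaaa
NFE2L1: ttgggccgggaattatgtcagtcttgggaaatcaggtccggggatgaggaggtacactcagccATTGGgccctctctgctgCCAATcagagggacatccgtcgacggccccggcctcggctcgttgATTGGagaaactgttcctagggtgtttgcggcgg

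The PSMB3 stretch held 1 match to each motif, that of PSME1 held 1 TGACNNNGC, that of NFE2L1 held 3 CCAAT matches, and that of PSMA3 held none. The stretch before another NFE2L1 start, chr17:48048581-48048740, is not shown and held 0 matches to either motif. Windows of 300 bases (250 before to 50 after a start) were at hand for 33 of the 38 genes. TGACNNNGC was present in 27.5% of their 40 windows and in 13.35% of all 35116 windows of that length. CCAAT was present in 42.5% and 34.61%. The 300-base window of PSMA3 did hold CCAAT, though not in the stretch shown. The 11 genes with TGACNNNGC were PSMA4, PSMB3, PSMC4, PSMC5, PSMD1, PSMD3, PSMD5, PSMD12, PSME1, PSME2 and PSME4, which include genes that fell, rose or were not called in treated TOM-1. A match is a description of the letters and no evidence of binding.

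Library totals ran from 18958144 to 35956959 counts. TOM-1 control replicate 3 stood apart: 14963 genes had reads in it, against 19857 to 21997 in the other 11 libraries, and its log CPM correlated at 0.926 and 0.921 with its replicates, against at least 0.975 in every other pair within a group. The 38 genes took 0.651% of its counts and 0.399% to 0.529% in the others. Relative to the mean of TOM-1 control replicates 1 and 2, its CPM (counts scaled to the library's total, with TMM factors) had a median ratio of 1.62 over the 38 genes, from 0.595 to 3.33, with 22 above 1.5. Among 9051 genes at 10 CPM or more the median ratio was 0.906 and 2098 were above 1.5. The ratio was lower for longer transcripts (Spearman rho −0.59 across the 38 genes, which share these libraries). The main TOM-1 results below are therefore given with and without this library; its part in the results with all libraries was not tested further. B-lineage markers were at 10 CPM or more in every library for 12 of 12 genes, and their sum ran from 7174 to 8901 CPM in TOM-1 controls and from 7614 to 7903 CPM after treatment. Of 6 T and NK cell genes 5 were below 1 CPM in every library, with CD3G at 0, and NKG7 was at 23.4 to 69.1 CPM. All 5 erythroid and platelet genes were below 1 CPM, with HBB at 0. Among 6 myeloid genes S100A8 and FCGR3A were at 0, but others had reads. MPO was at 9.79 to 20.97 CPM in TOM-1 and below 1 CPM in RS4;11. CSF1R was at 12.1 to 18.3 CPM in RS4;11 and below 5 CPM in TOM-1. The myeloid sum ran from 15.1 to 26.7 CPM in TOM-1 controls and from 10.2 to 15.6 CPM after treatment. Over the RS4;11 libraries it ran from 13.5 to 20.75 CPM. PECAM1, on a list of stromal and epithelial genes, was at 185 to 253 CPM in TOM-1. HOXA9 was at 0 in TOM-1 and at 69.8 to 80.7 CPM in RS4;11, which carries the KMT2A rearrangement.

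**Figure D1:**
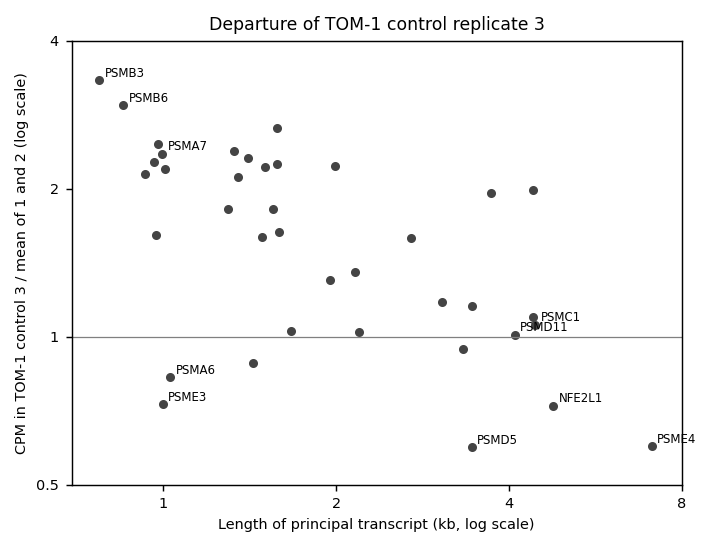
CPM in TOM-1 control replicate 3 divided by the mean of TOM-1 control replicates 1 and 2 (log axis), against the length of the principal transcript in kb (log axis), 1 point per gene for 38 genes. The short transcripts of PSMB3 and PSMB6 lie at the top left, and the long ones of NFE2L1 and PSME4 lie under 1.

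In TOM-1, ADI-PEG20 lowered the 20S core and the PSME1 and PSME2 caps and raised NFE2L1. At an adjusted p below 0.05, 24 of the 38 genes were called, 20 lower and 4 higher, where 31.9% of the 17349 tested genes were called (15.9% in each direction). The median log2 fold change was −0.68 over the 38 genes and 0.05 over all tested genes. Without control replicate 3, all 24 calls remained, with PSMC2 and PSMD12 (higher) and PSMD13 (lower) added: 27 were called, against 41.6% of the tested genes, and the median was −0.28 against 0.00. Those 27 were 6 higher (21.8% of tested genes) and 21 lower (19.8%). In 22 genes all treated libraries lay below all controls, against 20.1% of tested genes, and in 6 they lay above, against 26.1%. Without control replicate 3 these counts were 22 (28%) and 7 (31%). In bulk RNA, fewer cells of a kind and less RNA per cell cannot be told apart.

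**Figure D2:**
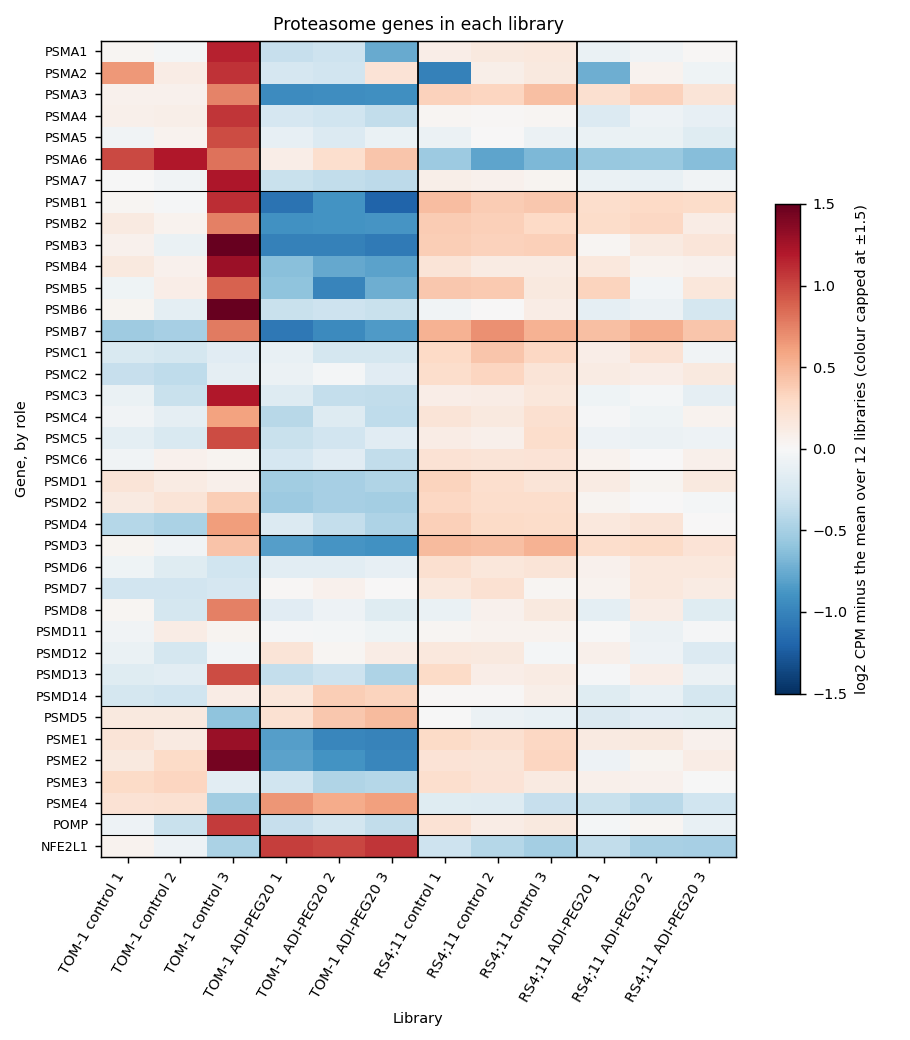
Heat map of log2 CPM minus each gene's mean over the 12 libraries (colour, capped at 1.5 either way), genes in rows by role and libraries in columns, with lines between the groups. In treated TOM-1 the beta ring, PSME1 and PSME2 are blue and NFE2L1 is red; TOM-1 control replicate 3 is red over much of the list.

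The beta ring changed as a block: 7 of 7 genes fell, with a median log2 fold change of −1.24 (−0.83 without control replicate 3). Its summed level was 828, 789 and 1867 CPM in the TOM-1 controls and 475, 469.6 and 462 CPM after treatment. PSMB3, a structural subunit, had the largest fall with all libraries, though not without control replicate 3, where PSMB1, PSME1 and PSME2 fell more. PSMB3 was at 101.7, 90.6 and 319.8 CPM in controls against 48.0, 48.1 and 46.4 CPM after treatment. All treated PSMB3 values lay below all controls, and the log2 fold change was −1.84 ± 0.37 (SE; adjusted p = 0.00311), or −1.02 ± 0.07 without control replicate 3.

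PSMB1, another structural subunit, stood at 128, 124 and 269.6 CPM in controls and at 58.4, 67.7 and 54.7 CPM after treatment. Its log2 fold change was −1.53 ± 0.25 (adjusted p = 0.000808), and −1.07 without control replicate 3. PSMB5, the chymotrypsin-like site and the target of bortezomib, went from 61.8, 69.0 and 119 CPM to 42.5, 32.5 and 38.8 CPM. The groups did not overlap for either gene, and the log2 fold change of PSMB5 was −1.13 ± 0.23 (adjusted p = 0.0027), or −0.79 without that library. PSMB2 and PSMB4 fell by 1.24 and 1.34 on the log2 scale, and by 0.99 and 0.83 without that library.

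The other cutting subunits fell less once the departing library was left out. PSMB6, the caspase-like site, was at 109.9, 96.7 and 305.3 CPM in controls and at 84.8, 86.5 and 85.2 CPM after treatment. The groups did not overlap, but the 1.99-fold fall (adjusted p = 0.0395) became a log2 fold change of −0.28 ± 0.08 without control replicate 3. PSMB7, the trypsin-like site, was at 66.4, 67.9 and 165.4 CPM and then at 45.8, 49.7 and 53.1 CPM, with log2 fold changes of −1.01 ± 0.28 (adjusted p = 0.0177) and −0.44 ± 0.08. Neither call was met in all of the 12 fits that left out 1 library: PSMB6 passed in 7 and PSMB7 in 10.

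In the alpha ring, 5 of 7 genes fell (PSMA1, PSMA3, PSMA4, PSMA6 and PSMA7), with a median over the ring of −0.79, or −0.46 without control replicate 3. PSMA3 was at 115.5, 114.7 and 184.9 CPM in controls and at 57.1, 57.5 and 58.3 CPM after treatment. The treated libraries lay close together and below every control (log2 fold change −1.26 ± 0.17, adjusted p = 0.000234; adjusted p = 1.51e-10 without control replicate 3). PSMA1 went from 36.5, 34.98 and 79.2 CPM to 28.1, 28.8 and 21.1 CPM (−0.95 ± 0.27, adjusted p = 0.0177; −0.46 without that library).

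PSMA6 was the alpha subunit in which control replicate 3 was not the highest library: controls held 38.6, 44.5 and 34.3 CPM and treated libraries 20.8, 23.1 and 26.0 CPM. Its fall was −0.75 ± 0.14 (adjusted p = 0.00214), and −0.84 without control replicate 3. PSMA5 (−0.54, adjusted p = 0.0761) and PSMA2 (−0.75, adjusted p = 0.264) were not called. Annotated read-through genes share 53.2% of the principal transcript of PSMA1, 52.5% of that of PSMA2 and 81.0% of that of PSMA6 on the same strand. PSMA2 had 13 to 62 counts a library, so the values of these 3 genes are uncertain.

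The 19S particle changed unevenly, with 5 of 17 subunits lower and 2 higher. PSMD2, the scaffold of the base, fell from 251.3, 261.8 and 295.5 CPM to 156.6, 162 and 161 CPM (log2 fold change −0.75 ± 0.10, adjusted p = 0.000201). PSMD1, the other scaffold of the base, fell by 0.62, and the lid subunit PSMD3 by 1.03 on the log2 scale. Without control replicate 3 these 3 log2 fold changes were −0.68, −0.65 and −0.87.

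Of the 6 ATPases, the motor of the particle, 2 were called. PSMC4 and PSMC6 were called lower, at −0.50 (adjusted p = 0.046) and −0.29 (adjusted p = 0.0473), or −0.23 and −0.28 without control replicate 3, and each passed in 5 of the 12 fits that left out 1 library. PSMC1 was not called, at 46.2, 45.01 and 48.2 CPM in controls and 50.001, 44.9 and 45.2 CPM after treatment (0.01 ± 0.11, adjusted p = 0.998). PSMC2 was at 84.0, 81.6 and 97.3 CPM and then at 100.6, 104.2 and 94.7 CPM, which overlap; its log2 fold change of 0.19 ± 0.11 was not called with all libraries (adjusted p = 0.207) but was 0.27 ± 0.07 and called without control replicate 3 (adjusted p = 0.0037). PSMC3 (−0.72) and PSMC5 (−0.57) were not called and were −0.09 and −0.08 without that library.

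Of the 8 lid subunits PSMD14 and PSMD7 rose. PSMD14, the metalloprotease that removes ubiquitin chains, was at 96.8, 94.2 and 124.6 CPM in controls and at 130.7, 149.7 and 146 CPM after treatment. All treated libraries lay above all controls (log2 fold change 0.43 ± 0.13, adjusted p = 0.0206; 0.57 ± 0.07 without control replicate 3), and the call was met in 6 of the 12 fits that left out 1 library. Over all 21 alternatives PSMD14 was called in 11, with log2 fold changes of 0.06 to 0.57. Its inactive lid partner PSMD7 was at 49.6, 49.5 and 50.8 CPM and then at 61.05, 63.2 and 60.6 CPM. The groups were well apart, yet the call on PSMD7 (0.30 ± 0.10, adjusted p = 0.0409) was met in 1 of those 12 fits, the one without control replicate 3.

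Of the remaining subunits, PSMD12 was at 0.24 (adjusted p = 0.143), PSMD13 at −0.70 (adjusted p = 0.055), PSMD4, a ubiquitin receptor, at −0.34, PSMD8 at −0.38, PSMD6 at 0.03 and PSMD11 at −0.07, none of them called. PSMD4 changed sign to 0.11 without control replicate 3. Antisense overlap adds a further uncertainty: genes on the opposite strand share 82.2% of the principal transcript of PSMC1, 50.4% of PSMD7, 27.2% of PSMC5 and 15.9% of PSMD13, and the sources used here do not say whether counting used strand.

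**Figure D3:**
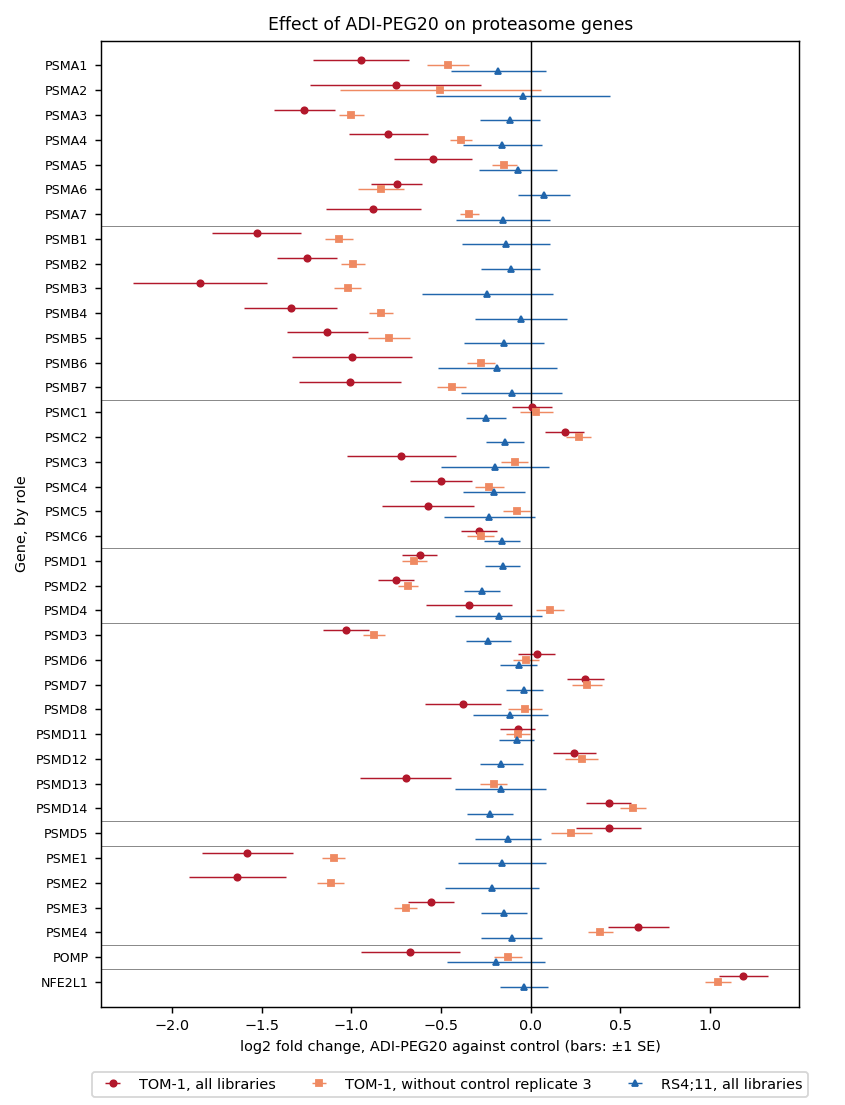
Log2 fold change of ADI-PEG20 against control (bars ±1 SE) for 38 genes by role: TOM-1 with all libraries (circles), TOM-1 without control replicate 3 (squares) and RS4;11 with all libraries (triangles). The beta ring, PSME1 and PSME2 lie far left in TOM-1 and NFE2L1 far right; the RS4;11 values lie just left of 0 for 37 of 38 genes.

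All 4 activators changed in TOM-1, in opposite directions. PSME1 (PA28 alpha), which with PSME2 forms the interferon-inducible cap, went from 292.8, 281 and 630.7 CPM to 145, 130.3 and 127.7 CPM. PSME2 (PA28 beta) went from 180.6, 198.6 and 438.4 CPM to 93.1, 87.7 and 82.3 CPM. The treated libraries lay far below every control, with log2 fold changes of −1.58 ± 0.25 (adjusted p = 0.000707) and −1.64 ± 0.27 (adjusted p = 0.000878), or −1.10 and −1.11 without control replicate 3. An opposite-strand gene also overlaps the principal transcript of PSME2.

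PSME3 (PA28 gamma), the nuclear cap, was at 241.9, 246 and 177.7 CPM in controls and at 160.4, 145 and 146.9 CPM after treatment. It fell by 0.56 on the log2 scale (SE 0.13, adjusted p = 0.00645), and by 0.70 without control replicate 3, which was the lowest control. PSME4 (PA200), a cap that works without ubiquitin, rose from 138.7, 139.2 and 83.1 CPM to 189, 175 and 182.7 CPM. The treated group lay above every control (0.60 ± 0.17, adjusted p = 0.0185; 0.39 ± 0.07 without control replicate 3), and the call was met in 9 of the 12 fits that left out 1 library. Taking PSME4 as a ratio to the summed CPM of PSME1 and PSME2, a measure chosen after the values were seen, the controls stood at 0.293, 0.29 and 0.0778 and treated libraries at 0.794, 0.803 and 0.870.

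POMP, the chaperone that matures the beta ring, was at 118.8, 99.4 and 260.9 CPM in controls and at 99.1, 104.1 and 97.5 CPM after treatment. The groups overlapped and POMP was not called (−0.67 ± 0.27, adjusted p = 0.0828; −0.13 without control replicate 3). The 19S chaperone PSMD5 was also not called, at 0.43 ± 0.18 (adjusted p = 0.0882; 0.23 without control replicate 3).

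NFE2L1 had the clearest rise. It was at 163.5, 149 and 113 CPM in TOM-1 controls and at 322.7, 316 and 331 CPM after treatment, without overlap. This is a 2.28-fold rise (log2 fold change 1.19 ± 0.13, adjusted p = 8.04e-05) and a 2.06-fold rise without control replicate 3, and it was called in every one of the 12 fits that left out 1 library. As a ratio to the summed CPM of the 20S core, also chosen after the values were seen, NFE2L1 went from 0.1, 0.0935 and 0.0325 to 0.297, 0.297 and 0.315.

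**Figure D4:**
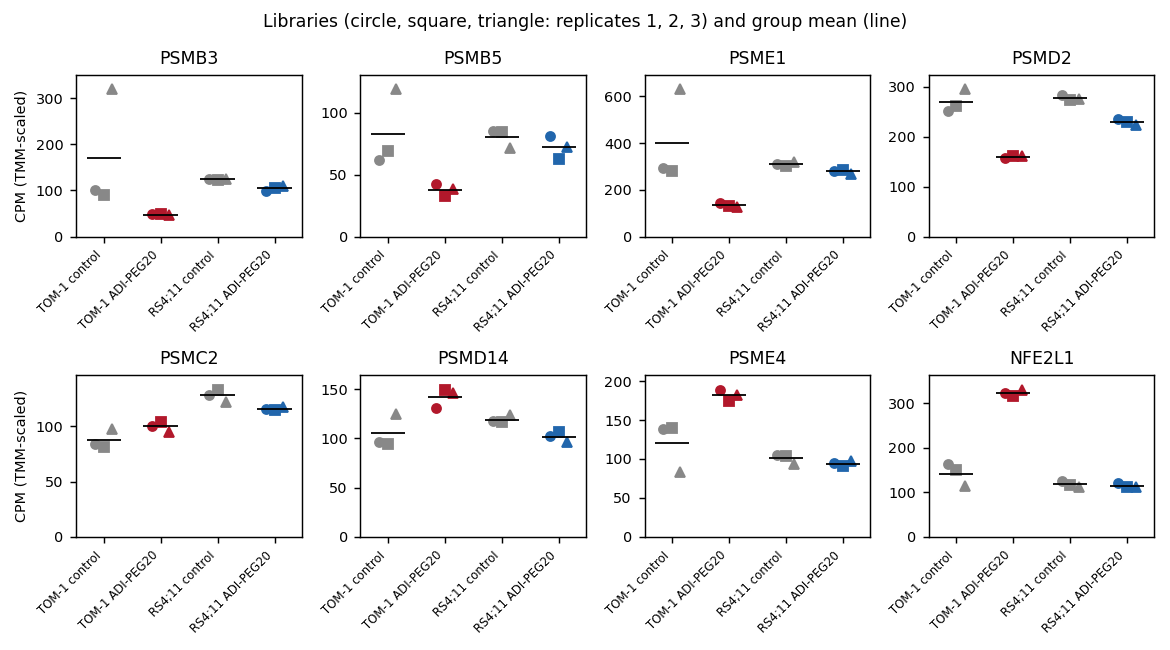
CPM (TMM-scaled, axis from 0) of PSMB3, PSMB5, PSME1, PSMD2, PSMC2, PSMD14, PSME4 and NFE2L1 in each library, with lines at group means and 3 libraries a group. Treated TOM-1 (red) lies below its controls for PSMB3, PSMB5, PSME1 and PSMD2 and above them for PSMD14, PSME4 and NFE2L1; replicate 3 of the TOM-1 controls departs from the others for most.

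The balance of core to cap is a within-library ratio that needs no scaling between libraries. Summed CPM of the 14 core genes over that of the 17 19S genes was 0.861, 0.873 and 1.26 in TOM-1 controls and 0.645, 0.627 and 0.639 in treated TOM-1. It was 0.791, 0.796 and 0.781 in RS4;11 controls and 0.814, 0.812 and 0.824 in treated RS4;11. Treated TOM-1 thus had the lowest ratio of the 4 groups, and the RS4;11 groups were apart in the other direction. This ratio was chosen after the values were seen and is a description.

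**Figure D5:**
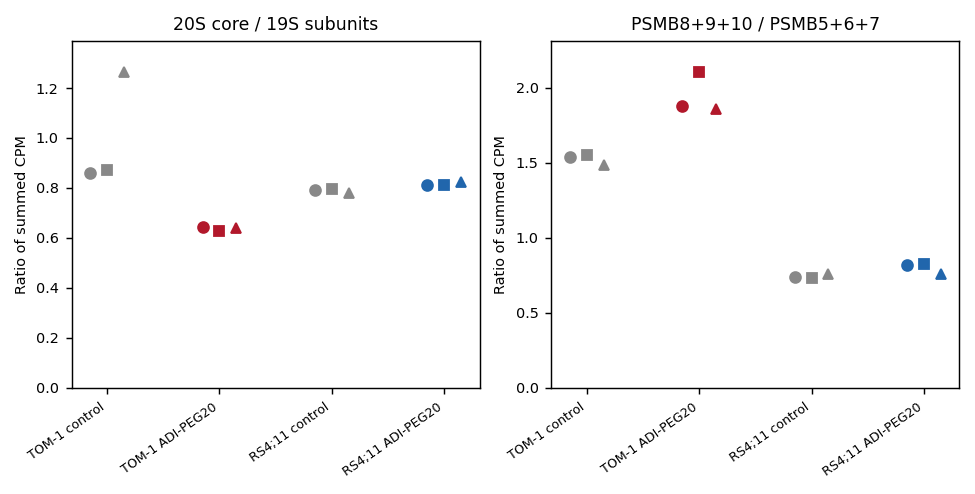
Ratio of summed CPM in each library (axis from 0) in 4 groups of 3 libraries: 20S core over 19S genes on the left, and PSMB8, PSMB9 and PSMB10 over PSMB5, PSMB6 and PSMB7 on the right. Treated TOM-1 has the lowest core ratio (0.627 to 0.645) and the highest immunoproteasome ratio (1.86 to 2.1).

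In RS4;11 no proteasome gene was called by edgeR with all libraries, where 0 of 17349 genes were called (0%) and 325 had an unadjusted p below 0.05. At that unadjusted level 2 of the 38 genes passed, PSMC1 and PSMD2. DESeq2 called 0 of the 38 and limma voom 1. Without TOM-1 control replicate 3, which enters through the shared spread, edgeR called PSMD2 as lower (−0.27 ± 0.05, adjusted p = 0.0255), against 0.317% of the tested genes (0.115% lower, 0.202% higher).

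The estimates in RS4;11 nevertheless leaned one way: 37 of 38 were below 0, with a median of −0.15 against 0.00 over all genes. In 25 of the 38 genes all treated libraries lay below all controls, against 9.05% of tested genes, and in 0 did they lie above, against 7.72%. Among the genes tested without TOM-1 control replicate 3 these shares were 8.73% and 7.54%. The same CPM values were used there, so the counts of 25 and 0 could not change. The summed CPM of the 38 genes was 5302, 5228 and 5233 in controls and 4730, 4787 and 4619 after treatment, a difference of −10.3%. The 20S core differed by −8.73% and the 19S genes by −11.7%.

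Individual RS4;11 values were close. PSMD2 was at 284, 274.6 and 275.3 CPM in controls and at 235.9, 230.7 and 224 CPM after treatment, without overlap. PSMC1 was at 66.5, 72.3 and 67.0 CPM and then at 58.1, 63.0 and 52.1 CPM. Their log2 fold changes were −0.27 and −0.25, smaller than the beta ring median in TOM-1 of −1.24 (−0.83 without control replicate 3). Without that library the smallest beta ring fall in TOM-1, that of PSMB6, was of similar size at −0.28.

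PSMB5 was at 85.2, 84.4 and 71.3 CPM in RS4;11 controls and at 81.4, 62.9 and 72.8 CPM after treatment, which overlap. PSME1 was at 312, 302.1 and 319 CPM and then at 282.5, 284.9 and 268.5 CPM, which do not. NFE2L1 was at 126.6, 117 and 111 CPM and then at 121.6, 112.7 and 111 CPM (log2 fold change −0.04 ± 0.13), with overlapping groups.

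In the core, PSMA1 was at 38.4, 39.5 and 39.8 CPM in RS4;11 controls and at 33.2, 34.5 and 36.1 CPM after treatment. PSMA3 was at 140.4, 138 and 150.9 CPM and then at 130.3, 140.1 and 126 CPM. The groups were apart for PSMA1 and overlapped for PSMA3. PSMB1 was at 173.3, 163 and 166.5 CPM and then at 150.5, 155 and 151.7 CPM. PSMB3 was at 125, 123 and 125 CPM and then at 99.3, 106 and 110.5 CPM. PSMB6 was at 103.7, 108.1 and 115.8 CPM and then at 97.7, 101.1 and 89.1 CPM. For these 3 beta subunits every treated library lay below every control. PSMA6 was at 13.1, 13.2 and 12.4 CPM after treatment, which overlaps its controls (given with the comparison of the lines).

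In the 19S particle, PSMC2 was at 128, 133 and 122 CPM in RS4;11 controls and at 115.7, 114 and 117.8 CPM after treatment. PSMD14 was at 117.5, 116.8 and 123 CPM and then at 102.4, 107 and 96.4 CPM. Neither gene's groups overlapped, and the PSMD14 estimate (−0.23 ± 0.13) had the opposite sign to that in TOM-1. PSMD7 was at 62.5, 67.6 and 65.7 CPM after treatment, which overlaps its controls. Among the caps, PSME2 was at 187.7, 186 and 203.5 CPM and then at 154.7, 167.6 and 175 CPM, without overlap. PSME3 was at 234.7, 227.7 and 216.6 CPM and then at 209, 207 and 197.3 CPM, also without overlap. PSME4 was at 104.9, 104.3 and 94.0 CPM and then at 94.4, 90.4 and 97.1 CPM, which overlap. The chaperone POMP was at 145.7, 135.5 and 139 CPM and then at 123, 128 and 116 CPM, without overlap.

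The test of the difference between the lines, the ADI-PEG20 effect in TOM-1 minus that in RS4;11, called 11 of the 38 genes, against 11.9% of all tested genes (9 lower, against 6.05%, and 2 higher, against 5.89%). Lower in TOM-1 relative to RS4;11 were PSMA3, PSMA6, PSMB1, PSMB2, PSMB4, PSMD2, PSMD3, PSME1 and PSME2, and higher were NFE2L1 and PSMD14. The difference was 1.22 ± 0.19 for NFE2L1 (adjusted p = 0.00207), −1.42 ± 0.35 for PSME1 (adjusted p = 0.0222) and −1.39 ± 0.35 for PSMB1 (adjusted p = 0.0233), on the log2 scale. Without TOM-1 control replicate 3 those 11 remained and 22 were called, against 30.4% (15 lower, 14.7%, and 7 higher, 15.7%). PSMB3 (−1.60 ± 0.52, adjusted p = 0.0644) and PSMB5 (−0.98 ± 0.32, adjusted p = 0.0629) were not called with all libraries and were called without that library; each passed in 3 of the 12 fits that left out 1 library. PSMA3, PSMB2, PSMD3 and NFE2L1 were called under every alternative tried. The count fell to between 4 and 7 in each fit that left out 1 treated TOM-1 library or 1 RS4;11 library. For PSMB6, PSMC3, PSMC5, PSMD13 and POMP the difference did not pass with or without control replicate 3.

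In control culture, 5 of the 38 genes were called between the lines, against 34.7% of tested genes (1 higher, 16.2%, and 4 lower, 18.4%). All TOM-1 controls lay above all RS4;11 controls in 2 genes, against 18.2% of tested genes, and below in 7, against 24.4%. PSMA6 was higher in TOM-1 (RS4;11 controls 13.3, 11.2 and 12.2 CPM; log2 difference 1.67 ± 0.15, adjusted p = 2.76e-06). PSMC1, PSMC2, PSMD6 and PSMD7 were lower, by 0.56, 0.55, 0.38 and 0.42 on the log2 scale. PSMC2 was at 128, 133 and 122 CPM and PSMD7 at 67.6, 71.1 and 61.7 CPM in RS4;11 controls, each above all TOM-1 controls. Without TOM-1 control replicate 3, 23 were called (3 higher, 25.4%, and 20 lower, 27.5%), against 52.8%, and 6 genes (32.9%) lay above and 24 (33.6%) below without overlap. PSMB7, the trypsin-like site, then stood out at −1.10 ± 0.08, where with all libraries it was −0.52 ± 0.28 and not called; its RS4;11 controls held 138, 154 and 137.4 CPM.

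Under ADI-PEG20 the 2 lines were compared without using TOM-1 control libraries for the means, although those libraries enter the shared spread. Of the 38 genes 21 were called, 16 lower and 5 higher in TOM-1, against 47.2% of tested genes (24% lower, 23.1% higher), and 32 without TOM-1 control replicate 3, against 62.9% (31.4% higher, 31.5% lower). All treated TOM-1 libraries lay above all treated RS4;11 libraries in 5 genes, against 35.7% of tested genes, and below in 27, against 34.9%. Among the genes tested without TOM-1 control replicate 3 these shares were 34.9% and 33.9%. The same CPM values were used there, so the counts of 5 and 27 could not change. Higher in TOM-1 were NFE2L1 (1.49 ± 0.14), PSME4 (0.96 ± 0.17), PSMA6 (0.85 ± 0.15), PSMD5 (0.57) and PSMD14 (0.48). The largest differences downward were in PSMB7 (−1.43 ± 0.29, adjusted p = 0.00146), PSMB1 (−1.34 ± 0.25, adjusted p = 0.000817) and PSMA3 (−1.20 ± 0.17, adjusted p = 0.000106). Treated RS4;11 libraries held 131.6, 140 and 127.7 CPM of PSMB7, against the 45.8 to 53.1 CPM of treated TOM-1 given above. This comparison shares libraries with the others and is no separate support for them.

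Levels between genes were compared per kb of principal transcript. In RS4;11 controls PSMA7 (312 CPM per kb) and PSME1 (309.2) were highest, then PSME3 (226.8) and PSMB4 (206.8). PSME4 (14.2), PSMA6 (11.9) and PSMD5 (6.45) were low, and PSMA2 (0.672) was lowest. Annotated read-through genes share 52.5% of the principal transcript of PSMA2 and 81% of that of PSMA6 on the same strand. The levels of these 2 genes are therefore uncertain. The highest levels in treated TOM-1 were PSMA7 (231) and PSME3 (151.1), and PSME1 (133.5) came next. NFE2L1 stood at 67.7 in treated TOM-1, against 29.8 in TOM-1 controls (32.8 without control replicate 3). In RS4;11 it stood at 24.8 in controls and 24.1 after treatment. Lengths are of 1 annotated transcript a gene, and which transcript the cells make was not measured.

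A list of 49 other genes of the pathway, of which 47 were tested, set these members in context. In TOM-1 10 rose and 14 fell, beside 15.9% of all tested genes in each direction, and without control replicate 3 these counts were 15 and 16, beside 21.8% and 19.8%. In RS4;11 0 were called by edgeR, with 0 at an unadjusted p below 0.05 (7 without control replicate 3). In the difference 4 were higher and 4 lower, beside 5.89% and 6.05%, and without control replicate 3 these counts were 15 and 14, beside 15.7% and 14.7%. Of a group of 8 genes (NGLY1, SYVN1, SEL1L, NFE2L2, NFE2L3, MAFF, MAFG and MAFK) 5 rose and 0 fell, where 15.9% of all tested genes rose. Of the genes listed under other roles that also act on NFE2L1, VCP fell and DDI2 was not called (0.31, adjusted p = 0.498). DDI2 was at 107.5, 109.4 and 34.9 CPM in TOM-1 controls and at 109.8, 102.5 and 99.9 CPM after treatment. Its control mean without control replicate 3 was 108.4 CPM, against a treated mean of 104.1 CPM. SEL1L, of the ER degradation complex, had a log2 fold change of 1.54 ± 0.33 (adjusted p = 0.00461), the small MAF genes MAFF and MAFG 1.13 and 0.85, NGLY1, which deglycosylates NFE2L1, 0.88, and the related factor NFE2L2 0.67. Without control replicate 3 all 5 were called, at 1.15, 1.44, 0.76, 0.90 and 0.53 for SEL1L, MAFF, MAFG, NGLY1 and NFE2L2 in that order.

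NGLY1 was at 178.5, 187.9 and 188.7 CPM in TOM-1 controls and at 339.6, 355.8 and 329.2 CPM after treatment, a case in which control replicate 3 did not depart. VCP, the p97 segregase that extracts NFE2L1 from the membrane, moved the other way, from 315.8, 324.9 and 428.3 CPM to 175.7, 170.4 and 166.3 CPM (−1.06 ± 0.13, adjusted p = 0.000113; −0.91 without control replicate 3). AKIRIN2, which brings proteasomes into the nucleus, rose by 1.08 on the log2 scale (0.88 without control replicate 3), from 41.4, 40.8 and 25.4 CPM to 77.4, 79.6 and 70.7 CPM.

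UBB, which encodes ubiquitin, and RPS27A, which encodes ubiquitin fused to a ribosomal protein, fell by 0.97 and 1.20 on the log2 scale, and by 0.75 and 0.57 without control replicate 3. The E1 enzyme UBA1, which activates ubiquitin, fell by 0.37, and by 0.34 without control replicate 3. UBA6, the other E1 enzyme, was at 0.65 (adjusted p = 0.113) and was called higher, at 0.29 (adjusted p = 0.00457), without that library. SEM1, a small 19S subunit, was at 76.2, 69.6 and 202.7 CPM and then at 32.0, 31.1 and 30.8 CPM (−1.89 ± 0.33, adjusted p = 0.00125; −1.22 ± 0.10 without control replicate 3). Of 7 assembly chaperones PSMG3 and PSMG4 fell, and PSMG3 did not pass without control replicate 3.

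The immunoproteasome genes PSMB8, PSMB9 and PSMB10 replace PSMB5, PSMB6 and PSMB7 in the cutting sites after interferon and in lymphoid cells. PSMB9 and PSMB10 fell in TOM-1 by 0.94 and 0.96 on the log2 scale, and by 0.36 and 0.40 without control replicate 3, and PSMB8 was not called (−0.38, adjusted p = 0.303; 0.13 without control replicate 3). As a ratio of summed CPM to PSMB5, PSMB6 and PSMB7, chosen after the values were seen, they stood at 1.54, 1.55 and 1.48 in TOM-1 controls and at 1.88, 2.1 and 1.86 after treatment. In RS4;11 the ratio was 0.735, 0.731 and 0.761 in controls and 0.819, 0.823 and 0.761 after treatment. TOM-1 control replicate 3 lay close to its replicates in this measure, and the TOM-1 groups did not overlap. PSMB11 and PSMA8, subunits of thymus and testis, were at 0 counts in all libraries.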

How the data were processed

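Groups and replicate numbers came from the sample titles, and columns were matched through the library names in the labels. The deposited table held raw counts, whole-number reads per Ensembl gene, made by the authors. STAR, SAMtools, featureCounts and hg38 are named, without versions, in the submitters' processing notes; the use of strand and the annotation release are not given in the sources used here. No column lacked a sample. Symbols were found for 60463 of 60664 identifiers, and positions for 58396 in GENCODE 29; 29301 genes had 0 counts in every library. Totals of 18958144 to 35956959 counts set the precision, which is lowest for PSMA2.

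Counts were fitted in R 4.3.3 with edgeR 4.0.16: filterByExpr (17349 genes), TMM scaling, 1 group-means model over 12 libraries, the quasi-likelihood test (glmQLFit and glmQLFTest), and Benjamini-Hochberg adjustment over all tested genes at 0.05. Each SE was taken from the F statistic, as the absolute log2 fold change over its root. Scripts were tested on simulated data. Alternatives were DESeq2 1.42.0 size factors and Wald test, upper-quartile scaling, no filter, a mean of 10 counts, and limma 3.58.1 voom with quality weights. Others were a replicate block, only the libraries of a contrast, and each of 12 libraries left out. Offsets for gene length (lowess, span 0.3) were also used, where length was that of all annotated exons merged and not of the principal transcript. The members and the lists were chosen with earlier results of these data known. Values per library are given for 13 genes chosen by role and for the 3 largest called changes in each direction of each contrast, and the pathway genes named are the 4 largest in each direction, with others named after their values were seen; some listed genes are not reported here. Promoter sequences are RefSeq's (GRCh38.p14). Python 3.11.15, pandas 2.3.3 and matplotlib 3.10.9 were used for tables and figures.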

Additional observations from a re-analysis of the deposited data

Results flagged for a closer look

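The ADI-PEG20 effect differed between the lines for 11 proteasome genes and 7 other genes of the pathway, by the edgeR test of the difference itself (log2 fold change in TOM-1 minus that in RS4;11, adjusted p below 0.05). In the core the differences were −1.15 for PSMA3, −0.82 for PSMA6, −1.39 for PSMB1, −1.13 for PSMB2 and −1.29 for PSMB4. In the 19S particle they were −0.48 for PSMD2, −0.79 for PSMD3 and 0.66 for PSMD14. The caps PSME1 and PSME2 each differed by −1.42, and NFE2L1 by 1.22. Among the other pathway genes the values were 1.36 for MAFF, 1.25 for AKIRIN2, 0.98 for NGLY1, 0.84 for MAFG, −1.74 for SEM1, −0.92 for VCP and −0.88 for UBB. TOM-1 control replicate 3 enters all of these values. Without it the differences were −0.88 for PSMA3, −0.93 for PSMB1, −0.78 for PSMB4, −0.94 for PSME1, −0.90 for PSME2, 1.08 for NFE2L1 and 0.80 for PSMD14. Over 20 alternatives the PSMD14 difference ran from 0.32 to 0.80 and was called in 5. PSMD2 was called in 8, PSMB4 in 10, PSME2 in 11, and PSMA6, PSMB1 and PSME1 in 14 each. PSMA3, PSMB2, PSMD3 and NFE2L1 were called in all 20. Among the other pathway genes SEM1 was then at −1.08 and MAFF at 1.67.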

How the results depend on the processing

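Of the 1976 values of 19 genes (95 results) recomputed under 21 alternatives, 1793 kept their direction and side of the threshold, 61 passed it newly, 114 no longer passed it and 8 turned to the called opposite sign. Those 8 concern TOM-1 against RS4;11 in control culture: PSMB1 at −0.39, PSMB3 at −0.34, PSMB5 at −0.34 and POMP at −0.33 with voom and quality weights, and −0.41, −0.37, −0.30 and −0.36 without TOM-1 control replicate 3; with each library left out in turn they reached 0.21, 0.72, 0.18 and 0.40. Counts of called genes moved by over 1.5 times in these cases. In a fit on the libraries of the contrast alone, 13 were called for TOM-1, 3 between the lines in control culture and 32 under ADI-PEG20; fewer libraries enter that fit. With voom the counts were 1 for RS4;11, 21 for the difference, 23 in control culture and 32 under ADI-PEG20, and without a filter 3 in control culture; the cause was not tested. Leaving out each library in turn gave 15 to 27 calls for TOM-1 (17, 16 and 15 without TOM-1 ADI-PEG20 replicates 1, 2 and 3), 0 to 1 for RS4;11, 4 to 22 for the difference, 4 to 23 in control culture and 14 to 32 under ADI-PEG20 (14 without TOM-1 ADI-PEG20 replicate 3), and the highest counts came without TOM-1 control replicate 3 (27 for TOM-1 also without control replicate 1 or 2). The replicate block gave 20, 0, 9, 5 and 19 calls in the order used here. The numbers share no stated origin: residuals of same-numbered libraries correlated at −0.062 to 0.145, 1 of 18 pairs was above 0.1, and 15 of 36 comparisons found a library's best match in its own number. Depth limits PSMA2, at 13 to 62 counts a library.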
